A study of Homo sapiens with 8 samples.

Results

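The SIN3 corepressor complex was represented by 150 of the 7856 sgRNAs in the EPIKOL library, 10 for each of 15 genes. These were all the sgRNAs assigned in the tables to SIN3A, SIN3B, SAP18, SAP25, SAP30, SAP30L, SAP130, SUDS3, BRMS1, BRMS1L, ARID4A, ARID4B, ING1, ING2 or PHF12, so no measured value decided membership. All 15 symbols were found, and the 15 genes were among 779 genes with at least 3 sgRNAs that were tested. The library also held 80 non-targeting sgRNAs. EPIKOL is a pooled lentiviral CRISPR library against chromatin regulators, in which the abundance of an sgRNA in genomic DNA counts the cells that carry it. Spacer sequences and cut sites were not analysed here.

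The screen was made in T1-160, a Taxol-resistant derivative of the triple-negative breast cancer cell line SUM159PT that expressed Cas9. All libraries came from cells infected with EPIKOL and selected with puromycin, which was given together with verapamil. The Taxol group (3 libraries) was grown in 160 nM Taxol and the DMSO group (3 libraries) in the solvent, both for 16 population doublings, while the AP group (after puromycin, 2 libraries, numbered 1 and 3) was collected once selection had ended. Setting Taxol against DMSO addresses which knockouts changed in frequency under the drug, and setting either against AP addresses changes over the whole culture. A single resistant line was screened. The labels do not say whether replicates were separate infections or cultures. The spread between these libraries may thus be technical, and p-values that use it measure nothing wider.

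SIN3 proteins are scaffolds that carry no enzyme activity of their own and bring histone deacetylases to promoters through sequence-specific transcription factors. Around the scaffold sit the deacetylases HDAC1 and HDAC2, the histone chaperones RBBP4 and RBBP7, and smaller subunits that stabilise the complex or read histone marks. The complex is best known for repressing transcription by removing acetyl groups from histones, and in several contexts it restrains cell cycle genes.

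The libraries held 2045984 to 11771420 reads, or 260.4 to 1498 reads per sgRNA. No SIN3 sgRNA was at 0 in any library, and the lowest held 15 reads. SIN3 sgRNAs made up 2.02% to 2.15% of the reads in the Taxol libraries, 1.63% to 1.92% in the DMSO libraries and 1.74% to 1.76% in the AP libraries. In Taxol 1, where they made up 2.06%, a single sgRNA against SAP30 (epikol_v2_5362) held 0.541% of the library. The 10 most abundant sgRNAs of the whole library held 6.23% to 10.6% of the reads of a Taxol library, against 2.36% to 2.80% of a DMSO library and 1.53% to 2.73% of an AP library. The part of this uneven abundance in the results below was not tested.

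The rank test (alpha-RRA) asks whether the sgRNAs of a gene crowd at one end of the ranking of all sgRNAs. Its p-value takes those sgRNAs as the units, and the spread between libraries enters only through the ranking. A second test, the gene mean test (limma), sets the mean log2(normalized count + 1) over the sgRNAs of a gene against the spread between libraries. A gene was called at a Benjamini-Hochberg adjusted p under 0.05 over all 779 genes. Levels below are such gene means, fold changes are differences of them on the log2 scale with their SE, and sgRNAs against 1 gene are not replicates of a condition. Each comparison had its own table with its own scaling, so a level differs between tables for the same library. The 3 comparisons share libraries in pairs and are therefore not independent of each other.

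ARID4A and ING2 were the SIN3 genes that were called, both as enriched in Taxol over AP. In that comparison 2 of the 15 genes were enriched by the rank test, where 1.41% of all genes were, and 0 were depleted, where 4.88% were. Without Taxol 1 or without AP 3 neither gene was called, and without Taxol 2, Taxol 3 or AP 1 only ARID4A was. In Taxol against DMSO the rank test called 0 SIN3 genes, with 0.257% of all genes depleted and 0.128% enriched, and in DMSO against AP it also called 0, with 2.31% depleted and 0.128% enriched. At an unadjusted p under 0.05, Taxol against DMSO gave 2 depleted SIN3 genes (ARID4B and BRMS1L, against 4.62% of all genes) and 1 enriched (SUDS3, against 6.68%). DMSO against AP gave 1 depleted (SAP18, against 11.6%) and 3 enriched (ARID4A, ARID4B and SAP30, against 8.47%). Taxol against AP gave 2 depleted (PHF12 and SAP18, against 13%) and 3 enriched (ARID4A, ING2 and SAP30, against 8.47%).

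The gene mean test called 0 SIN3 genes in every comparison. The share of all genes it called was 0% lower and 0.128% higher in Taxol over DMSO, 1.41% lower and 0.77% higher in DMSO over AP, and 0% lower and 0.128% higher in Taxol over AP. At an unadjusted p under 0.05, limma gave ARID4A and SUDS3 as higher in Taxol than in DMSO (2 of 15, against 4.62% of all genes), and 0 as lower (against 1.54%). It gave ARID4A, ARID4B, ING2 and SAP30 as higher in DMSO than in AP (4, against 12.5%), with SAP18 as lower (1, against 8.73%). It gave ARID4A, ING1, ING2 and SAP30 as higher in Taxol than in AP (4, against 16.9%), with PHF12 as lower (1, against 6.29%).

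The median log2 fold change of the 15 genes was 0.10 in Taxol over DMSO, 0.26 in DMSO over AP and 0.29 in Taxol over AP. The medians over all 779 genes were 0.03, 0.15 and 0.20 in the same order, and those of the 80 non-targeting sgRNAs were 0.11, 0.43 and 0.68. The median SIN3 gene thus lay above the median of all genes and below the median non-targeting sgRNA in each comparison. Taken as single sgRNAs, the SIN3 medians were 0.13, 0.21 and 0.29. These lay above the non-targeting median in Taxol over DMSO and below it in both comparisons with AP. A fold change above 0 was found for 9 of the 15 in Taxol over DMSO (55.1% of all genes), 11 in DMSO over AP (63.3%) and 11 in Taxol over AP (67.7%). When the libraries were centred on the non-targeting sgRNAs instead, all genes moved down by a median of -0.17, -0.31 and -0.53 and the SIN3 medians became -0.07, -0.05 and -0.24, so every direction given below is relative to the deposited scaling.

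The scaffolds SIN3A and SIN3B passed no gene test in any comparison. For SIN3A, the level was 8.29, 8.28 and 7.92 in Taxol 1 to 3, against 8.52, 8.17 and 8.06 in DMSO 1 to 3. In the table of Taxol and AP it was 8.40, 8.39 and 8.04 in the Taxol libraries, against 8.27 and 8.31 in AP 1 and AP 3. The groups overlapped in both, and the fold change was -0.08 ± 0.22 in Taxol over DMSO, 0.03 ± 0.22 in DMSO over AP and -0.01 ± 0.21 in Taxol over AP. Beneath this mean the sgRNAs differed from each other, though not unusually so. Their SD was 0.78 in Taxol over AP, against a median of 0.68 over all genes. In Taxol over DMSO it was 0.46, against 0.64. In Taxol over AP the 10 fold changes, from epikol_v2_5651 to epikol_v2_5660, were 0.42, -1.20, 0.65, 0.62, -1.40, 0.30, 0.72, -0.37, -0.30 and 0.46. Of these, epikol_v2_5652 and epikol_v2_5655 stood well below the rest, and the others lay within 0.72 of 0 in either direction. Both were at -1.03 and -1.14 in DMSO over AP, and at -0.22 and -0.31 in Taxol over DMSO.

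For SIN3B, the paralogue scaffold, the level was 8.37, 8.42 and 9.05 in Taxol 1 to 3, against 8.60, 8.75 and 8.71 in DMSO 1 to 3. In the table of Taxol and AP it was 8.48, 8.53 and 9.18 in the Taxol libraries, against 8.87 and 8.81 in the AP libraries. Taxol 3 stood above and the other Taxol libraries below both of the other groups, so the groups overlapped. The fold change was -0.07 ± 0.23 in Taxol over DMSO, -0.08 ± 0.21 in DMSO over AP and -0.11 ± 0.24 in Taxol over AP. In Taxol over AP the sgRNAs epikol_v2_5661 to epikol_v2_5670 had fold changes of -0.95, 0.70, -0.65, -0.14, -0.14, -0.0024, 0.43, -0.13, -0.40 and 0.20, and 3 of the 10 were above 0. The difference between the changes of SIN3A and SIN3B was -0.02 in Taxol over DMSO (exact permutation test over libraries, two-sided, p = 0.9). With 3 libraries against 3 or 2, the smallest p this test allows is 0.1.

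ARID4A and its paralogue ARID4B are large DNA-binding subunits, and ARID4A was first known as a partner of the retinoblastoma protein. ARID4A sgRNAs were enriched in Taxol over AP. Its level was 10.15, 9.43 and 9.98 in Taxol 1 to 3, against 8.56 and 8.50 in AP 1 and AP 3. Every Taxol library lay above both AP libraries. The fold change was 1.32 ± 0.25, the 4th highest of the 779 genes, with an adjusted p of 0.00052 in the rank test and 0.0546 in the gene mean test of limma. As a share of all reads, the ARID4A sgRNAs made up 0.144%, 0.168% and 0.244% of Taxol 1 to 3, against 0.108% and 0.101% of AP 1 and AP 3. By share too, the groups did not overlap.

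All 10 ARID4A sgRNAs were higher in Taxol than in AP. Their fold changes, from epikol_v2_351 to epikol_v2_360, were 2.78, 0.23, 1.90, 2.31, 0.47, 2.29, 0.39, 1.06, 1.20 and 0.58. The sgRNAs epikol_v2_351, epikol_v2_353, epikol_v2_354 and epikol_v2_356, stood apart from the other 6, all of which were at 1.20 or below. The sgRNA epikol_v2_351 had normalized counts of 2464, 452 and 5001 in Taxol 1 to 3, against 258 and 255 in AP 1 and AP 3. The sgRNA epikol_v2_356 had 1152, 1587 and 3223 in Taxol 1 to 3, against 262 and 519 in AP 1 and AP 3. Both were higher in every Taxol library than in either AP library, although the size of the difference varied widely among the Taxol libraries. With the non-targeting sgRNAs as the centre the gene fold change was 0.80 and the gene was still called (adjusted p = 0.00108 in the rank test). The rank call was lost without Taxol 1 (adjusted p = 0.0598) and without AP 3 (adjusted p = 0.270), where the fold change was 1.17 and 1.29.

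ARID4A was not called in the comparisons that involve DMSO. In the table of DMSO and AP the level was 9.24, 10.05 and 9.61 in DMSO 1 to 3, against 8.95 and 8.88 in AP 1 and AP 3. The groups did not overlap, but the fold change of 0.72 ± 0.24 did not pass (adjusted p = 0.0912 in the rank test and 0.124 in limma). The sgRNAs epikol_v2_351, epikol_v2_353, epikol_v2_354 and epikol_v2_356 led here too, with fold changes of 1.59, 1.37, 1.80 and 1.44. The AP libraries were the same in both comparisons, so this is not a separate observation. The sgRNA epikol_v2_358 was at 1.26, while the other 5 lay from -0.24 to 0.21. In Taxol against DMSO the level was 10.04, 9.32 and 9.85 in Taxol 1 to 3, against 8.82, 9.53 and 9.18 in DMSO 1 to 3. Taxol 2 lay below DMSO 2, so these groups overlapped, and the fold change of 0.56 ± 0.26 did not pass (adjusted p = 0.791 in the rank test and 0.765 in limma), with 9 of the 10 sgRNAs above 0.

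ARID4B did not pass in any comparison after adjustment. Its level was 8.44, 8.80 and 8.32 in Taxol 1 to 3, against 9.02, 9.19 and 8.67 in DMSO 1 to 3. Taxol 2 lay above DMSO 3, so the groups overlapped, but within each same-numbered pair Taxol was the lower, by differences of -0.58, -0.38 and -0.35. The fold change was -0.44 ± 0.23 (adjusted p = 0.906 in the rank test, 0.839 in limma), and it did not pass with the pairs as a block either (adjusted p = 0.875 and 0.614). From epikol_v2_361 to epikol_v2_370 the fold changes in Taxol over DMSO were -0.04, -0.86, 0.26, -1.10, -0.73, 1.05, -0.01, -1.57, -1.05 and -0.33, of which 2 were above 0. In DMSO over AP the level was 9.44, 9.70 and 9.10 in DMSO 1 to 3, against 8.89 and 8.78 in AP 1 and AP 3, and the fold change was 0.58 ± 0.22 (adjusted p = 0.302 in the rank test). All DMSO libraries were above both AP libraries there. In Taxol over AP the fold change was 0.19 ± 0.21.

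The paralogues were set against each other directly. The change of ARID4A minus that of ARID4B was 1.00 in Taxol over DMSO (exact permutation test over libraries, two-sided, p = 0.1, the smallest possible), 0.14 in DMSO over AP (p = 0.7, exact permutation test) and 1.14 in Taxol over AP (p = 0.2, exact permutation test). Per library, the level of ARID4A exceeded that of ARID4B by 0.52 to 1.60 in the Taxol libraries, against -0.20 to 0.51 in the DMSO libraries. The lowest Taxol library thus lay just above the highest DMSO library. In all, 5 paralogue pairs were compared in each of the 3 comparisons, and no p could fall below 0.1, so none could pass an adjustment.

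ING1 and ING2 are tumour suppressor family members with a PHD finger that binds the methylated tail of histone H3. ING2 was the other gene called in Taxol over AP. Its level was 9.46, 9.18 and 9.66 in Taxol 1 to 3, against 8.38 and 8.69 in AP 1 and AP 3. All Taxol libraries lay above both AP libraries. The fold change was 0.90 ± 0.22 (adjusted p = 0.0347 in the rank test, 0.0744 in limma). From epikol_v2_2861 to epikol_v2_2870 the sgRNA fold changes were -0.21, 0.96, 1.26, 1.41, 0.73, 0.01, 1.26, 1.29, 0.68 and 1.66. Of these, 9 were above 0, 1 of them barely, and 5 were above 1. This call was lost whichever of the 5 libraries was left out (adjusted p = 0.0921 to 0.426 in the rank test) and with the non-targeting sgRNAs as the centre (fold change 0.38, adjusted p = 0.0862).

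In DMSO over AP, ING2 had levels of 9.11, 9.60 and 9.47 in DMSO 1 to 3, against 8.77 and 9.07 in AP 1 and AP 3. The lowest DMSO library was close to the highest AP library, and the fold change was 0.48 ± 0.22 (adjusted p = 0.225 in limma). In Taxol over DMSO its levels were 9.35, 9.07 and 9.54 in Taxol 1 to 3, against 8.69, 9.09 and 9.04 in DMSO 1 to 3, a fold change of 0.38 ± 0.24 (adjusted p = 0.855 in limma). These groups overlapped, with 9 of the 10 sgRNAs above 0.

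ING1 had levels of 9.51, 8.99 and 9.56 in Taxol 1 to 3, against 8.68 and 8.90 in AP 1 and AP 3. The groups did not overlap, Taxol 2 lying just above AP 3, and the fold change of 0.56 ± 0.23 did not pass (adjusted p = 0.177 in limma). From epikol_v2_2851 to epikol_v2_2860 the sgRNA fold changes in Taxol over AP were 0.37, 0.93, 1.42, 0.87, 0.23, 0.37, 0.62, 1.48, -0.37 and -0.29. Its fold change was 0.39 ± 0.22 in DMSO over AP and 0.13 ± 0.25 in Taxol over DMSO. The change of ING1 minus that of ING2 was -0.34 in Taxol over AP (exact permutation test, two-sided, p = 0.1, the smallest possible) and -0.25 in Taxol over DMSO (p = 0.2, exact permutation test).

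SAP30, SAP30L, SAP18, SAP25, SAP130 and SUDS3 are SIN3-associated proteins. SAP30 bridges the scaffold to other corepressors, and SUDS3 supports the deacetylase activity of the complex. For SAP30 the level was 8.87, 9.01 and 9.21 in Taxol 1 to 3, against 7.86 and 8.31 in AP 1 and AP 3. In the table of DMSO and AP it was 9.40, 9.13 and 9.27 in DMSO 1 to 3, against 8.25 and 8.69 in AP 1 and AP 3. Both cultured groups lay wholly above AP. The fold change was 0.95 ± 0.22 in Taxol over AP (adjusted p = 0.0822 in the rank test, 0.0744 in limma) and 0.79 ± 0.22 in DMSO over AP (adjusted p = 0.354 in the rank test, 0.0677 in limma), so neither passed. Taxol and DMSO overlapped, with a fold change of 0.11 ± 0.23.

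The sgRNAs against SAP30 differed widely from each other. In Taxol over AP the fold changes from epikol_v2_5361 to epikol_v2_5370 were 0.78, 3.18, 0.70, 1.76, -0.59, -0.61, 1.14, 1.19, 0.39 and 1.52. The sgRNA epikol_v2_5362 had normalized counts of 44759, 1427 and 3917 in Taxol 1 to 3, against 2230, 1024 and 973 in DMSO 1 to 3, on the scale of the Taxol and DMSO table. It was the 7th most abundant sgRNA of Taxol 1 and held 0.541% of that library. The sgRNA epikol_v2_5368 had the opposite order, with 158, 353 and 535 in Taxol 1 to 3, against 988, 1047 and 699 in DMSO 1 to 3. The median of the 10 sgRNA fold changes was 0.96 in Taxol over AP, 0.77 in DMSO over AP and 0.08 in Taxol over DMSO, all close to the gene means, and 8, 9 and 5 of the 10 were above 0. The difference between the median levels of the sgRNAs, another summary, was 0.38 in Taxol over AP and -0.51 in Taxol over DMSO.

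SAP30L, the paralogue of SAP30, had fold changes of -0.04 ± 0.24 in Taxol over DMSO, 0.12 ± 0.24 in DMSO over AP and 0.13 ± 0.23 in Taxol over AP. The change of SAP30 minus that of SAP30L was 0.81 in Taxol over AP (exact permutation test, two-sided, p = 0.1, the smallest possible), 0.67 in DMSO over AP (p = 0.2, exact permutation test) and 0.14 in Taxol over DMSO (p = 0.6, exact permutation test). In both comparisons with AP the library values of this difference did not overlap.

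SAP18 is also a component of an RNA-binding complex that is joined to the splicing machinery. Its level was 7.42, 7.64 and 8.07 in DMSO 1 to 3, against 8.49 and 8.23 in AP 1 and AP 3. All DMSO libraries were below both AP libraries, and the fold change of -0.65 ± 0.25 did not pass (adjusted p = 0.310 in the rank test, 0.170 in limma). In the table of Taxol and AP the level was 7.12, 7.53 and 7.91 in Taxol 1 to 3, against 8.10 and 7.85 in AP 1 and AP 3, a fold change of -0.45 ± 0.24 (adjusted p = 0.201 in the rank test, 0.254 in limma). Taxol 3 lay above AP 3, so these groups overlapped. Taxol and DMSO also overlapped, at a fold change of 0.15 ± 0.23.

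The sgRNAs against SAP18 differed widely from each other. In DMSO over AP the fold changes from epikol_v2_5341 to epikol_v2_5350 were -0.03, 0.10, 0.56, -0.68, -1.67, -1.30, -2.15, -1.18, -0.31 and 0.16. The lowest, epikol_v2_5347, had normalized counts of 66.0, 81.5 and 52.3 in DMSO 1 to 3, against 401 and 217 in AP 1 and AP 3. It was low in every DMSO library, while 3 sgRNAs against the same gene were above 0.

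SUDS3 had levels of 8.86, 8.43 and 8.34 in Taxol 1 to 3, against 8.05, 7.77 and 8.11 in DMSO 1 to 3. Every Taxol library was above every DMSO library, as for 6.29% of all genes, and 8 of the 10 sgRNAs were above 0. The fold change of 0.57 ± 0.22 did not pass (adjusted p = 0.535 in the rank test, 0.640 in limma). From epikol_v2_6041 to epikol_v2_6050 the fold changes in Taxol over DMSO were 1.08, 1.01, 0.51, -0.15, 0.86, 0.35, 0.55, 0.41, -0.52 and 1.56. In the comparisons with AP its fold change was -0.33 ± 0.22 for DMSO, with no overlap between the groups, and 0.29 ± 0.22 for Taxol. SUDS3 was the only SIN3 gene with all Taxol libraries above all DMSO libraries, and BRMS1L the only one with all of them below.

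SAP130 and SAP25 did not pass at an unadjusted p under 0.05 in any gene test. SAP130, a large subunit, had fold changes of 0.38 ± 0.23 in Taxol over DMSO, 0.11 ± 0.24 in DMSO over AP and 0.53 ± 0.26 in Taxol over AP. SAP25 had 0.10 ± 0.24, 0.35 ± 0.22 and 0.49 ± 0.25 in the same comparisons.

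BRMS1 was named as a metastasis suppressor in breast cancer cells, and BRMS1L is its paralogue. The level of BRMS1L was 8.39, 8.36 and 8.06 in Taxol 1 to 3, against 9.02, 8.53 and 8.52 in DMSO 1 to 3. Every Taxol library was below every DMSO library, as for 4.49% of all genes. The fold change of -0.42 ± 0.22 did not pass (adjusted p = 0.889 in the rank test, 0.839 in limma). From epikol_v2_861 to epikol_v2_870 the sgRNA fold changes were 1.01, -1.05, 0.05, -0.30, -0.52, -0.04, -2.34, -1.004, -0.21 and 0.21. The lowest of these, epikol_v2_867, had normalized counts of 34.5, 40.7 and 33.0 in Taxol 1 to 3, against 156, 98.1 and 422 in DMSO 1 to 3. It was thus low in every Taxol library. The fold change of epikol_v2_861 had the other sign, but its groups overlapped, at 246 to 2069 in Taxol against 230 to 572 in DMSO.

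Against AP, BRMS1L had a fold change of 0.42 ± 0.22 in DMSO and 0.05 ± 0.20 in Taxol. In the DMSO comparison all DMSO libraries lay above both AP libraries, at 9.44, 9.04 and 8.94 in DMSO 1 to 3, against 8.74 and 8.69 in AP 1 and AP 3. BRMS1 did not pass at an unadjusted p under 0.05 and had fold changes of 0.09 ± 0.24 in Taxol over DMSO, 0.26 ± 0.21 in DMSO over AP and 0.40 ± 0.25 in Taxol over AP. The change of BRMS1 minus that of BRMS1L was 0.51 in Taxol over DMSO (exact permutation test, two-sided, p = 0.3).

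PHF12 is a PHD finger protein that joins SIN3B in a form of the complex found at transcribed genes. Its level was 8.52, 9.05 and 8.69 in Taxol 1 to 3, against 9.34 and 9.27 in AP 1 and AP 3. In the table of DMSO and AP it was 9.22, 9.51 and 9.01 in DMSO 1 to 3, against 9.73 and 9.65 in AP 1 and AP 3. All cultured libraries lay below both AP libraries. The fold change was -0.55 ± 0.22 in Taxol over AP (adjusted p = 0.107 in the rank test, 0.168 in limma) and -0.44 ± 0.22 in DMSO over AP (adjusted p = 0.826 in the rank test, 0.245 in limma). From epikol_v2_4461 to epikol_v2_4470 the sgRNA fold changes in Taxol over AP were -1.11, -0.69, -0.80, -0.70, -1.39, 0.01, -0.54, -0.81, 0.35 and 0.16. Of these, 7 were below -0.5 and the other 3 were above 0. Taxol over DMSO gave -0.16 ± 0.23.

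Groups that did not overlap were common against AP. In DMSO over AP they were separate for 7 SIN3 genes that were higher (29.3% of all genes) and 3 that were lower (14.1%). In Taxol over AP they were separate for 4 that were higher (32.3%) and 1 that was lower (14.5%), namely PHF12. Taxol over DMSO had 1 in each direction. Within the same-numbered pairs of Taxol and DMSO, 3 SIN3 genes were lower in Taxol in all 3 pairs (ARID4B, BRMS1L and PHF12, against 11.7% of all genes) and 2 were higher in all 3 (SAP18 and SUDS3, against 16.9%).

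For single sgRNAs, limma called 0 of the 150 SIN3 sgRNAs in every comparison, as it did for 0% of all sgRNAs. At an unadjusted p under 0.05, 2 SIN3 sgRNAs were higher and 4 lower in Taxol than in DMSO (2.04% and 1.55% of all sgRNAs). In DMSO over AP 11 were higher and 3 lower (3.16% and 3.63%), and in Taxol over AP 7 were higher and 3 lower (2.2% and 3.9%). Of the 7 higher in Taxol over AP, 4 were against ARID4A and 2 against ING2. Without regard to a test, 85 of the 150 had a fold change above 0 in Taxol over DMSO (52.2% of all sgRNAs), 94 in DMSO over AP (56.7%) and 94 in Taxol over AP (57.8%). Fold changes above 1 were found for 17, 22 and 31 SIN3 sgRNAs in these comparisons (8.29%, 10.8% and 14.9% of all sgRNAs), and fold changes below -1 for 15, 14 and 8 (6.16%, 8.55% and 6.5%). All Taxol libraries lay above all DMSO libraries for 4 sgRNAs and below them for 7 (4.76% and 4.26% of all). DMSO was wholly above AP for 22 and wholly below for 13 (11.2% and 12%), and Taxol wholly above AP for 25 and wholly below for 17 (12.4% and 13.6%). The SD among the sgRNAs of a gene had a median of 0.75 over the SIN3 genes and 0.64 over all genes in Taxol over DMSO.

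Some SIN3 sgRNAs, like others of the whole library, were far higher in 1 Taxol library than in the other Taxol libraries. For 26 of the 150 (17.3%), the highest Taxol library held at least 4 times the normalized count of the next Taxol library, against 12% of all sgRNAs. For DMSO this held for 10 (6.67%), against 7.09% of all. The single high library was Taxol 1 for 11 of the 26, Taxol 2 for 5 and Taxol 3 for 10. SIN3B had 3 such sgRNAs, all in Taxol 3, the library in which its level stood highest. The highest normalized count among them was that of epikol_v2_5362 against SAP30 in Taxol 1, at 44759. Next by normalized count was epikol_v2_5332 against SAP130 in the same library, at 11030 against 460 in the next Taxol library. By share of its library, epikol_v2_5332 (0.133% of Taxol 1) lay below epikol_v2_852 against BRMS1 (0.177% of Taxol 2).

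The partners that SIN3 shares with other complexes were counted from a list of 8 genes, of which 7 were measured (HDAC1, HDAC2, RBBP4, RBBP7, MORF4L1, KDM5A and OGT). The rank test called 2 of the 7 as depleted and 0 as enriched in Taxol over AP (4.88% and 1.41% of all genes), 0 in DMSO over AP (2.31% depleted and 0.128% enriched) and 0 in Taxol over DMSO (0.257% and 0.128%). In Taxol over AP the histone chaperone RBBP4 fell by 0.80 ± 0.22 (adjusted p = 0.0222 in the rank test). The histone chaperone RBBP7 fell by 0.86 ± 0.20 there (adjusted p = 0.0025 in the rank test). The gene mean test of limma called neither (adjusted p = 0.0876 for RBBP4 and 0.0744 for RBBP7). RBBP7 stayed called whichever library was left out, while RBBP4 was not called without Taxol 3 (adjusted p = 0.0826) or without AP 3 (adjusted p = 0.130). The deacetylases HDAC1 and HDAC2 had fold changes of 0.61 ± 0.28 and 0.60 ± 0.31 in Taxol over AP and did not pass. RBBP4 and RBBP7 were at -0.65 and -0.37 in DMSO over AP. They were at -0.19 and -0.54 in Taxol over DMSO, and were called in neither comparison.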

How the data were processed

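Per the labels, sgRNA abundance was sequenced from genomic DNA. The authors deposited normalized counts per sgRNA in 3 tables, scaled within each table, with the values of a group joined in 1 cell; the submitters' processing notes name MAGeCK 0.5.8. Other deposited values of the authors (gene scores, p-values and log2 fold changes) were not used. AP cells hold 3 values and the labels name AP 1 and 3, so AP 1 was taken as the leading value, AP 3 as the last, and 2 value columns were not used. Values within a cell were taken to follow the order of replicate numbers.

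Read totals came from the step between values of a library, of which 98.98% to 99.99% were whole reads within 0.1 read. Tests used log2(normalized count + 1), which understates changes of low sgRNAs, in limma 3.58.1 (R 4.3.3; lmFit, eBayes with trend), within a table and without covariates. The rank test (alpha-RRA, lowest or highest 25% of ranks, exact one-sided p) and limma on gene means (two-sided) were adjusted by Benjamini-Hochberg over 779 genes, and the scripts were tested on simulated data.

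Members and lists were chosen with earlier results of these data known. Library and sgRNA values are given for SIN3A, SIN3B and members with an unadjusted p under 0.05 in either gene test. Deviations from group means of same-numbered Taxol and DMSO libraries correlated at 0.169, 0.131 and 0.206 over sgRNAs, so the numbers were taken as pairs there. For AP the correlations were -0.0174 to 0.0357, so they were not. In Taxol over DMSO the pairs entered only the within-pair differences and the replicate block. The main tests and the permutation test did not use them. Alternatives were a pseudocount of 10, leaving out sgRNAs under 50, centring on non-targeting or all sgRNAs, 10% of ranks, the median over sgRNAs, a replicate block and leaving out each library.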

Additional observations from a re-analysis of the deposited data

How the results depend on the processing

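The AP group had 2 libraries and 1 line was screened. Libraries held at least 260.4 reads per sgRNA, and whether depth limited the calls was not tested. With the non-targeting sgRNAs as the centre, the median change of the SIN3 genes was -0.074 in Taxol over DMSO, -0.046 in DMSO over AP and -0.24 in Taxol over AP, the rank test called 1 SIN3 gene in Taxol over AP (ARID4A) and the gene mean test 3 (ARID4A higher, PHF12 and SAP18 lower). Over all genes in that comparison the gene mean test then called 150 lower and 4 higher, against 0 and 1 with the deposited scaling. With median levels over sgRNAs, the median change was 0.14 in DMSO over AP and 0.041 in Taxol over AP, and the gene mean test called 1 SIN3 gene in Taxol over AP (ARID4A). With the replicate block, which in the comparisons with AP also takes Taxol 2 or DMSO 2 out of the contrast because no AP 2 was used, the rank test called 0 SIN3 genes in Taxol over AP (ARID4A, adjusted p = 0.0961) and the gene mean test called 3 there (ARID4A, ING2 and SAP30) and 1 in DMSO over AP (SAP30), where limma called 1 SIN3 sgRNA. Over all genes in Taxol over AP, the gene mean test under the block called 16 lower and 48 higher. Without Taxol 2 and with no block, the rank test called ARID4A (adjusted p = 0.0362) and the gene mean test ARID4A alone. The block changed no other call of a SIN3 gene, and in Taxol over DMSO, the pairing the data bore out, it called 0. Left-out libraries gave 0 to 1 SIN3 genes called in Taxol over AP by the rank test and 0 to 1 by the gene mean test, 0 to 1 by the gene mean test in DMSO over AP (SAP30 without DMSO 2), median changes of 0.01 to 0.15 in Taxol over DMSO, 0.20 to 0.39 in DMSO over AP and 0.15 to 0.30 in Taxol over AP, and 1 to 3, 1 to 2 and 3 to 4 paralogue pairs without overlap in these comparisons. Over all genes in Taxol over AP, left-out libraries gave 2 to 36 depleted and 1 to 8 enriched, lowest without AP 3, against 38 and 11 with all libraries; 10% of ranks gave 15 depleted, the block 4 enriched, and the gene mean test 2 lower and 3 higher with the median over sgRNAs and 0 to 1 lower and 0 to 8 higher without a library. In DMSO over AP, where the gene mean test called 11 lower and 6 higher, it called 16 and 0 centred on non-targeting sgRNAs, 43 and 24 with the block, 3 and 3 with the median over sgRNAs and 0 to 20 and 0 to 13 without a library, while the rank test called 6 enriched with the block and 1 to 6 without a library, against 1. In Taxol over DMSO, with 2 depleted and 1 enriched, it called 4 enriched centred on non-targeting sgRNAs, 2 without low sgRNAs, 1 depleted with 10% of ranks and 0 to 1 depleted and 1 to 3 enriched without a library, and the gene mean test called 1 lower and 2 higher with the block and 0 to 1 and 0 to 4 without a library, against 0 and 1. The directions of the called SIN3 genes, ARID4A and ING2 in Taxol over AP, were turned in no setting. Those of other genes were not followed. The cause of these differences was not tested.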
